A study of Mus musculus with 6 samples.

Results

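The clustered and variant histone genes were examined in C2C12 cells, an established mouse myoblast line whose cells divide in serum and fuse into myotubes when it is withdrawn. They were chosen by name, as every gene whose GENCODE M21 symbol has one of the older mouse histone forms, pseudogenes left out. This gave 64 of the 23154 genes counted, of which 52 are clustered genes, 11 are replacement genes and 1, H3f3aos, is an antisense transcript of H3f3a. The same annotation holds 84 genes by this rule, and the other 20 were not analysed here. The HA-NUR77 group was a stable line with a doxycycline-inducible pINDUCER20b construct for HA-tagged NUR77, a nuclear receptor, and the GFP group was a stable line with the same kind of construct for green fluorescent protein. Both groups had received 1 µg/mL doxycycline for 18 hours, beginning 24 hours after seeding, and each group had 3 libraries, each from its own dish. Whether a line was a clone or a pool is not given in the labels, nor is the species of the NUR77 insert, and the line and its construct cannot be told apart.

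Histones are the proteins around which DNA is wound. The core histones H2A, H2B, H3 and H4 form the nucleosome, and linker H1 binds where DNA enters and leaves it. Clustered genes supply most histones while DNA is being copied; their transcripts typically end at a 3′ stem-loop bound by SLBP and carry no poly(A) tail. Replacement genes, such as those for H3.3 and H2A.Z, are transcribed through the cell cycle into ordinary polyadenylated mRNA. The libraries were made from poly(A) RNA selected with oligo-dT beads, so a clustered transcript was counted chiefly where it carried a tail, and the values below are not its total level.

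The libraries held 13906096 to 22821446 counts, and no pair of the same group agreed within sampling noise. Nr4a1, the mouse gene for NUR77, averaged 22.5 ± 3.03 CPM (counts scaled to a common library total, with a normalization factor for each library) in HA-NUR77 libraries and 20.4 ± 7.43 CPM in GFP libraries (SD, n = 3 each), and did not pass the test (edgeR adjusted p = 0.698), so it does not check the labels. The marker counts that follow stand against 12.4% of all genes tested higher in HA-NUR77 libraries and 13.2% lower. With the replicate number as a term of the fit (a block, explained below), these shares were 23.5% and 24.6%. Of 7 myoblast markers tested, 2 rose in HA-NUR77 libraries, Cdh15 and Itga7, and with the block 4 rose and 1 fell, Myf5. The list summed to 5734 to 6516 CPM in HA-NUR77 libraries and 3638 to 4832 CPM in GFP libraries, mostly from Des and Itga7. Its members did not all move one way, since Myf5, Pax7 and Vcam1 had log2 fold changes of -0.23, -0.28 and -0.43 and did not pass without the block. Of 9 markers of differentiating muscle, 1 rose, Myh3, and 6 with the block. That list summed to 13828 to 16074 CPM in HA-NUR77 libraries and 9446 to 13066 CPM in GFP libraries, mostly from Acta1 and Myh3. Not all of its members moved, since Myog, Mymx and Mybph had log2 fold changes of -0.00, -0.09 and 0.03 and did not pass in either fit. Macrophage markers summed to 2.44 to 3.88 CPM in HA-NUR77 libraries and 1.60 to 3.04 CPM in GFP libraries, with 3 reads of Ptprc in each group. Csf1r, 1 of the 2 macrophage markers tested, rose, with 78 reads in HA-NUR77 libraries and 19 in GFP libraries (edgeR adjusted p = 0.0443, 0.0141 with the block). Cd68, the other, had 44 and 26 reads and did not pass in either fit. Among markers with too few reads to test, Itgam went the other way, with 31 reads in HA-NUR77 libraries and 44 in GFP libraries. Lyz2 had 26 and 12. In bulk RNA, a change in the share of cells of a kind and a change of RNA per cell cannot be told apart, and the part of these marker lists in the results below was not tested.

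Of the 8 clustered genes with enough reads to be tested, 6 had the stem-loop in their annotated transcripts, and Hist1h2bc and Hist2h2be had no match. The 7 windows below are printed because they show the signal in those 6 genes and in H2afx, a replacement gene that carries it too. Each is 30 bases of GRCm38 read 5′ to 3′ along the transcript, with both arms of the stem in capitals.
Hist1h1c, chr13:23739505-23739534, plus strand: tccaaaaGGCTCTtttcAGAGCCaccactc
Hist3h2a, chr11:58955165-58955194, plus strand: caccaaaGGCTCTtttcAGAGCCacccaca
Hist1h2be, chr13:23585524-23585553, minus strand: aaccaaaGGCTCTtttcAGAGCCacccaac
Hist2h3c2, chr3:96238478-96238507, minus strand: ccacaaaGGCTCTtttcAGAGCCaccacag
Hist1h4i, chr13:22040959-22040988, minus strand: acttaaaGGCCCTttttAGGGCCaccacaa
Hist2h4, chr3:96262932-96262961, minus strand: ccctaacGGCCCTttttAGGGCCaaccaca
H2afx, chr9:44335233-44335262, plus strand: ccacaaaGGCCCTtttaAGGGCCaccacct

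The histone stem-loop pattern, searched on the transcript strand alone, was found in 37 of the 52 clustered genes, and in 116 of 21951 protein-coding genes, 48 of them histone genes. The form seen in Hist1h1c, Hist3h2a, Hist1h2be and Hist2h3c2 was the most common, in 19 of the 37. In 21 genes an annotated transcript ran more than 100 bases past the stem-loop, and these held 11034 reads over the 6 libraries, 68.9% of all clustered reads, with 1 to 9584 reads a gene. Hist1h1c alone held 9584 of them, and the median over the 21 genes was 8 reads. In the 16 genes whose annotation stopped within 100 bases, there were 43 reads, 0.268% of the total, with 0 to 11 reads a gene and a median of 1. The 100-base division was chosen after the values were seen. Reads were counted by annotated gene, so a short annotation also left fewer bases in which a read could count. Hist1h4b, within 100 bases, has 397 annotated exon bases, and Hist1h1d, past 100 bases, has 7425. The part of annotated length in this contrast was not tested. A long stretch did not always go with reads, since Hist1h2ac and Hist4h4, with 2010 and 2445 bases after the stem-loop, had 2 reads each. The 15 genes with no match held 30.9% of clustered reads, nearly all of them from Hist1h2bc and Hist2h2be. Only annotated transcripts were searched, and some are short, with 381 bases in Hist1h2bl and in Hist1h2bn. A gene with no match may therefore still have the stem-loop. The transcripts of Hist1h2bc and Hist2h2be are longer, at 1156 and 2620 bases, and the 1 annotated for Hist1h2bc has more than 1 exon.

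**Figure D1:**
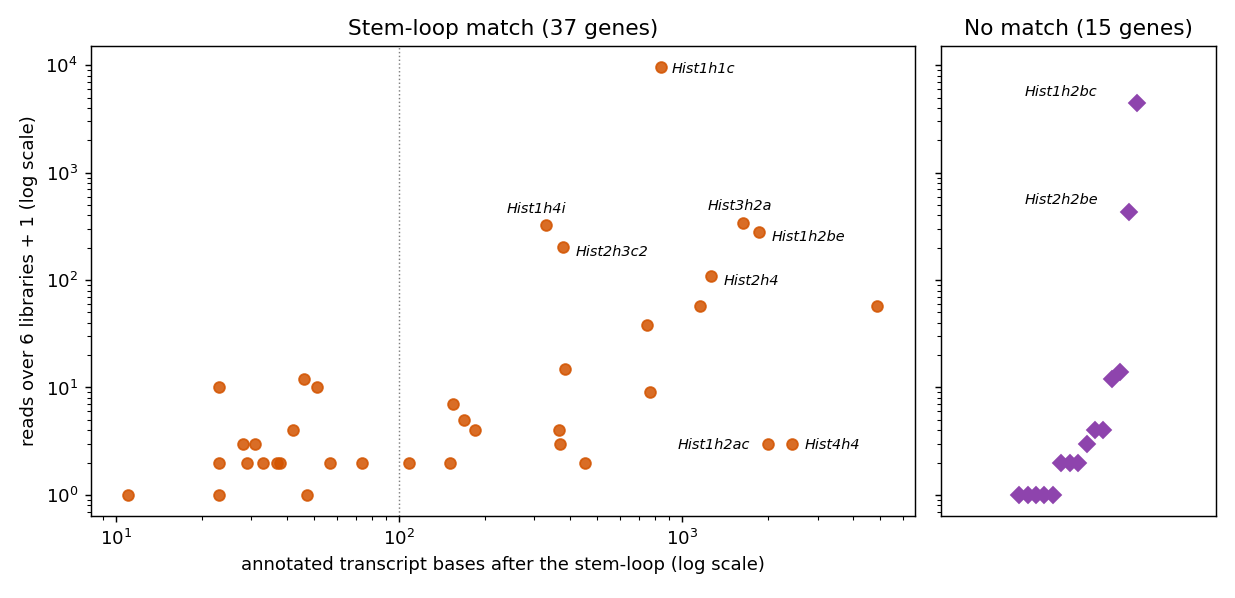
Reads of each clustered histone gene, summed over the 6 libraries plus 1 on a log axis, against the number of annotated transcript bases after the stem-loop on a log axis (left), and for the 15 genes with no stem-loop match (right). Each point is a gene and the dotted line is at 100 bases, left of which the 16 genes hold 43 reads together.

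Replacement genes gave 84.8% of the histone reads and clustered genes 15.2%. Clustered genes together made 154, 146 and 164 CPM in HA-NUR77 libraries 1, 2 and 3, against 151, 175 and 157 CPM in GFP libraries 1, 2 and 3. Replacement genes made 831, 883 and 796 CPM in HA-NUR77 libraries, against 939, 973 and 824 CPM in GFP libraries. Both sums overlapped between the groups. Among clustered reads, linker H1 took 60.7% and H2B 32.5%, while H4, H2A and H3 took 2.97%, 2.18% and 1.62%. Among replacement reads, H3 took 66.8%.

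A small number of clustered genes carried nearly all of that class. Hist1h1c, which encodes a linker H1, and Hist1h2bc, which encodes an H2B, had 87.8% of clustered reads, and the 8 clustered genes that passed the filter on low counts had 98.3%. Of the other 44, 8 had no read in any library, which allows up to 3 reads in each, 33 had 1 to 20 reads, and Hist1h1d, Hist1h1e and Hist1h3d had 56, 56 and 37. Those 3 gave ratios of HA-NUR77 to GFP reads, scaled by depth, of 1.03 (0.587 to 1.82), 1.11 (0.631 to 1.96) and 0.975 (0.485 to 1.98), with exact 95% intervals that cover counting error only. Genes of this class resemble one another: in the median clustered gene, 53.6% of the 50-base words of the transcript occurred in no other gene, against 93% in the median replacement gene. For Hist2h3c2 the value was 36.5%, so its reads may be split with a near copy. Among replacement genes the value was lowest for H2afz, at 64.6%, and was 72.9% for H3f3a, so their reads may be shared too. Hist1h2be shares exon bases on the same strand with Hist1h1e, and Hist3h2a with Trim17, and both are likewise uncertain.

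Per kilobase of annotated exon, and averaged over the 6 libraries, the highest levels were those of H3f3b at 104.7 CPM, H3f3a at 78.0 CPM and H1f0 at 68.3 CPM. Hist1h1c at 60.2 CPM and Hist1h2bc at 38.6 CPM per kilobase stood next, above H2afv at 25.1 and H2afz at 21.6 CPM per kilobase. All others lay at or below the 6.43 CPM per kilobase of H2afy. Thus the clustered genes Hist1h1c and Hist1h2bc ranked among the replacement genes in these poly(A) libraries.

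**Figure D2:**
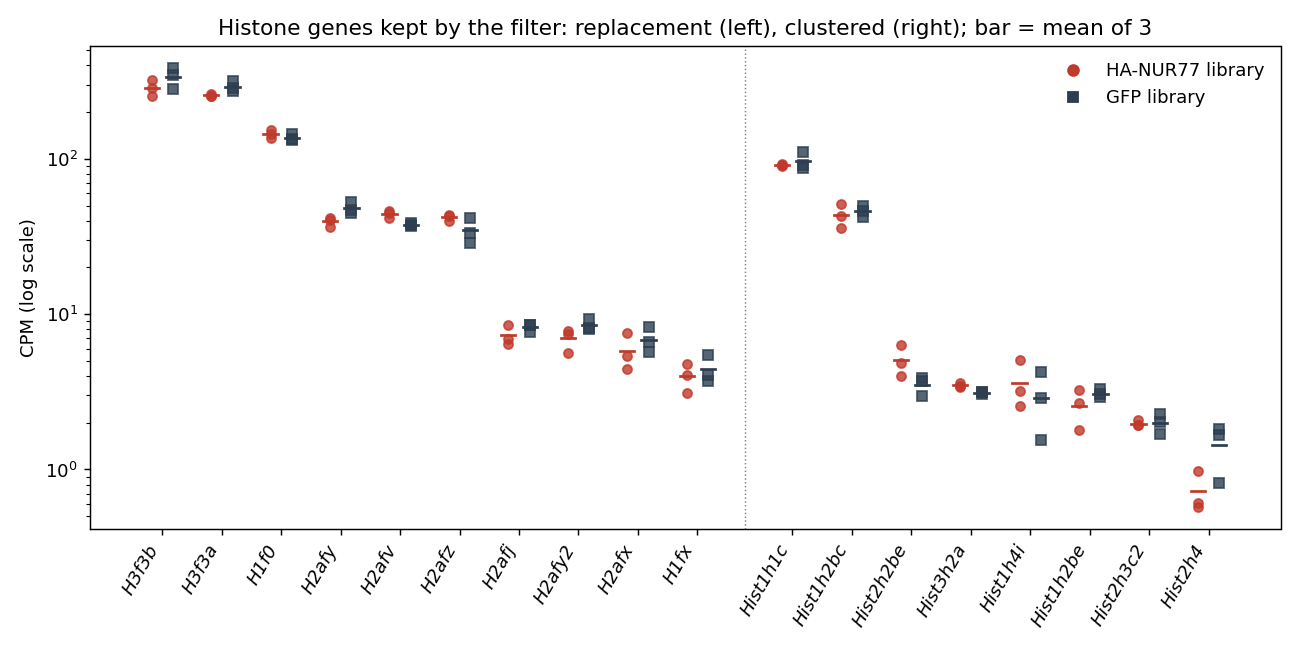
CPM (log axis) of each histone gene that passed the filter, in every library, HA-NUR77 left of GFP for each gene. Points are libraries; the replacement genes H3f3b and H3f3a are highest and the clustered gene Hist2h4 is lowest.

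Few histone genes differed between HA-NUR77 and GFP cells by edgeR's quasi-likelihood test. Of 12509 genes tested, 25.6% passed an adjusted p of 0.05 in either direction, 12.4% higher and 13.2% lower in HA-NUR77 cells. Among the 18 histone genes tested, 1 passed, H2afv, which rose. None of the 8 clustered genes passed in either direction; 2 had an unadjusted p under 0.05, and DESeq2 and limma-voom also called 0. The median log2 fold change was -0.04 over the clustered genes tested and -0.18 over the 10 replacement genes tested, against 0.01 over all genes tested. The groups did not overlap in 1 replacement gene that was higher and 3 that were lower, and in 2 clustered genes that were higher, where 23% of all genes tested were higher without overlap, 22.5% lower and 45.6% either.

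Same-numbered libraries deviated together across genes, and adding that number to the fit as a block raised the calls over all genes to 48.1%, with 23.5% higher and 24.6% lower in HA-NUR77 cells. In that fit 7 histone genes passed: H2afv, H2afz and Hist2h2be rose, and H3f3a, H3f3b, H2afy and Hist2h4 fell. As a share of the 18 tested this is 38.9%. Each of these 7 moved in the same direction in both fits, which use the same 6 libraries, so this is no separate support.

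**Figure D3:**
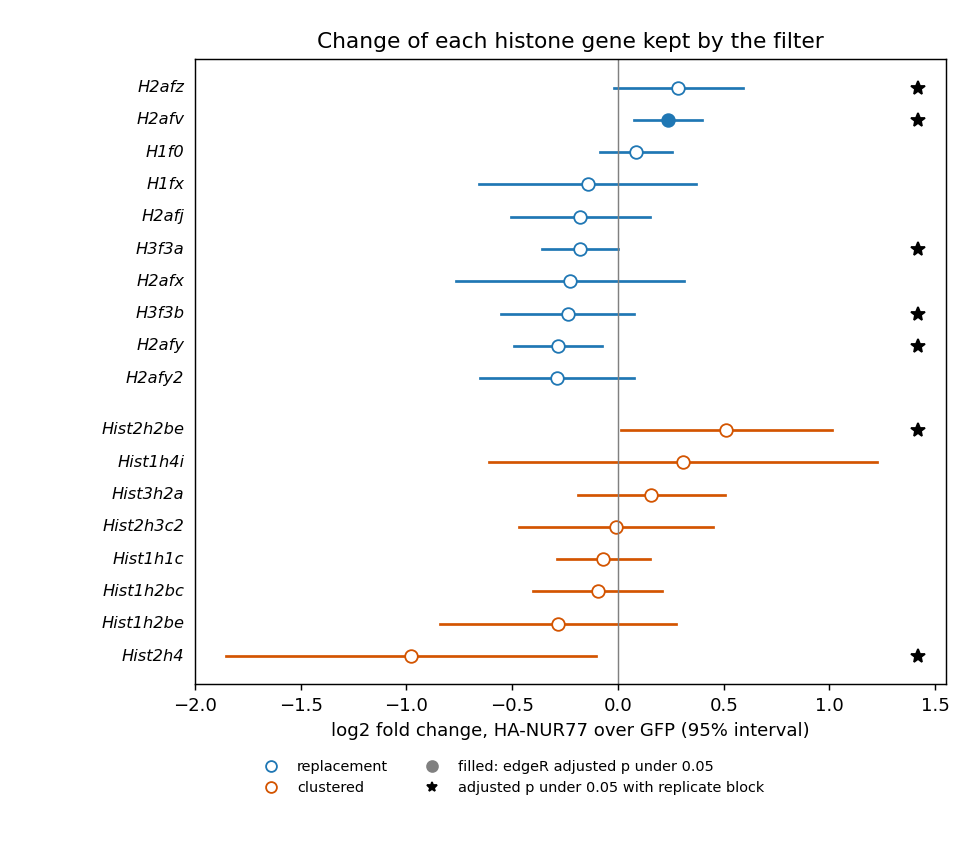
Fitted log2 fold change, HA-NUR77 over GFP, with its 95% interval, of the 10 replacement and 8 clustered histone genes that passed the filter. Only H2afv is filled (edgeR adjusted p under 0.05 without a block), and stars mark the 7 that passed with the replicate block.

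Both H2A.Z genes had higher means in HA-NUR77 cells, and H2afv rose. H2afv, which encodes H2A.V, a close relative of H2A.Z, had 41.8, 45.1 and 46.2 CPM in HA-NUR77 libraries, against 37.1, 37.4 and 38.5 CPM in GFP libraries. The groups did not overlap. H2afv rose by a log2 fold change of 0.24 ± 0.07 (SE), or 1.18-fold with a 95% interval of 1.05 to 1.32 (edgeR adjusted p = 0.0426; 0.00959 with the block). The call was lost without any single library of the 6 (adjusted p 0.0666 to 0.126), with DESeq2 (0.0685), with no filter on low counts (0.0697), and with a correction for length and GC content, where the log2 fold change was 0.11 (adjusted p = 0.254). H2afz, which encodes H2A.Z, a variant found around the starts of active genes, had 43.3, 43.1 and 39.9 CPM in HA-NUR77 libraries, against 33.3, 41.7 and 28.8 CPM in GFP libraries. GFP library 2 lay within the HA-NUR77 values and the other two GFP libraries below them. The log2 fold change of H2afz was 0.29 (95% interval -0.02 to 0.59; edgeR adjusted p = 0.144, 0.014 with the block), and it passed without GFP library 2, at a log2 fold change of 0.44. It was 0.17 without GFP library 3 and 0.16 with the length and GC correction, and the edgeR adjusted p without any single library was 0.0304 to 0.319.

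The H3.3 genes had lower values in HA-NUR77 cells. H3.3 is the H3 that is laid down outside DNA replication, and H3f3a and H3f3b encode the same protein. H3f3b had 284, 321 and 253 CPM in HA-NUR77 libraries, against 347, 384 and 280.1 CPM in GFP libraries, so the groups overlapped, but each HA-NUR77 library was below the GFP library of its number. The log2 fold change of H3f3b was -0.24 (95% interval -0.55 to 0.08; edgeR adjusted p = 0.225, 0.00433 with the block), and -0.36 to -0.13 without any single library. H3f3a had 263, 252 and 254 CPM in HA-NUR77 libraries, against 315, 283 and 272 CPM in GFP libraries, with no overlap. Its log2 fold change was -0.18 (95% interval -0.36 to -0.00; edgeR adjusted p = 0.122, 0.0202 with the block). H3f3aos, the antisense transcript, had 77 reads in all and a log2 fold change of -0.45 (edgeR adjusted p = 0.351). How the counting treated strand is not given in the labels, so reads in the bases it shares with H3f3a cannot be told apart. Of the 50-base words of H3f3aos, 95% occurred in no other gene on either strand.

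The read balance of H2A.Z and H3.3 genes was also compared. H2afz and H2afv together had 15.6, 15.4 and 17.0 reads per 100 reads of H3f3a plus H3f3b in HA-NUR77 libraries, against 10.6, 11.8 and 12.2 in GFP libraries. The means were 16.0 ± 0.891 in HA-NUR77 libraries and 11.6 ± 0.821 in GFP libraries (SD, n = 3 each), and the groups did not overlap. This ratio was chosen after the values were seen and is given as a description. The split within each pair of genes overlapped between the groups: H3f3b made 51.9%, 56.0% and 49.9% of H3.3 reads in HA-NUR77 libraries, against 52.5%, 57.6% and 50.7% in GFP libraries. Each HA-NUR77 share was below that of the GFP library of its number.

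**Figure D4:**
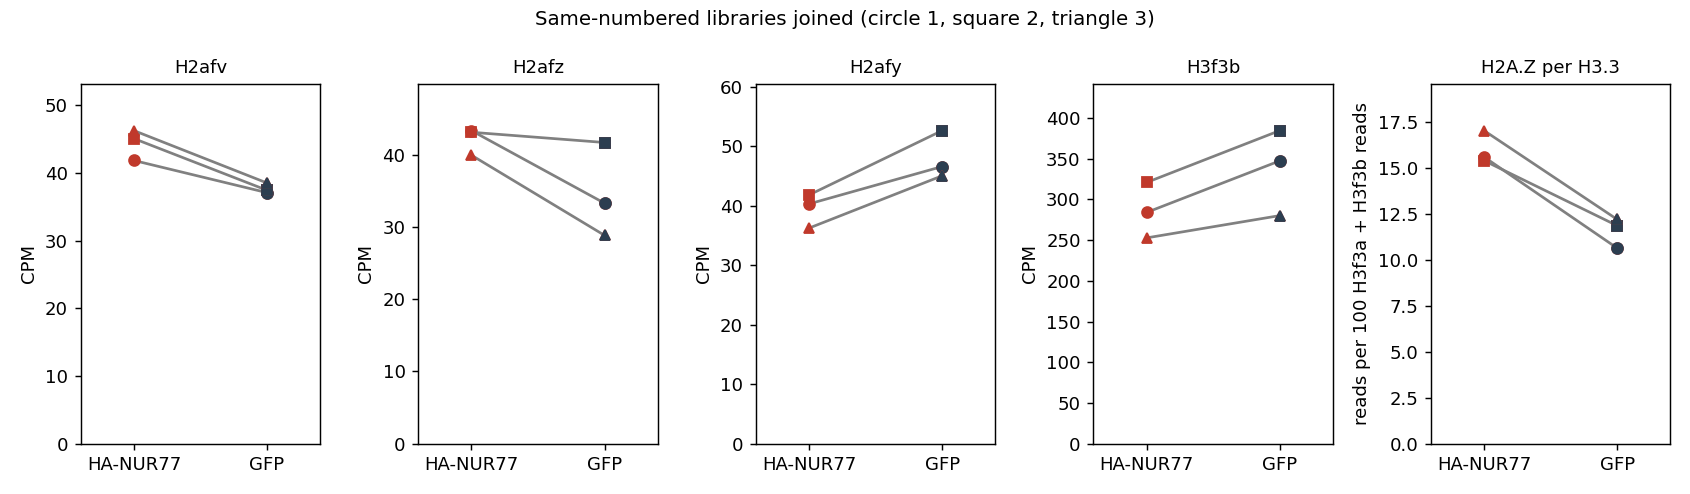
CPM of H2afv, H2afz, H2afy and H3f3b, and reads of H2afz plus H2afv per 100 reads of H3f3a plus H3f3b, in each library, with HA-NUR77 left of GFP and lines joining libraries of the same number. H2afv and the ratio are higher in every HA-NUR77 library than in any GFP library, H2afy is lower, and H2afz and H3f3b overlap.

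MacroH2A, an H2A with a large extra domain that is found in silent chromatin, is encoded by H2afy and H2afy2. H2afy had 40.3, 41.8 and 36.3 CPM in HA-NUR77 libraries, against 46.6, 52.7 and 45.1 CPM in GFP libraries, with no overlap. Its log2 fold change was -0.28 (95% interval -0.49 to -0.08; edgeR adjusted p = 0.0524, 0.00298 with the block), just outside the threshold, and it passed without GFP library 3, at -0.33, and with RLE size factors, at -0.29. It was -0.21 without GFP library 2 and -0.23 without HA-NUR77 library 3, and the edgeR adjusted p without any single library was 0.0486 to 0.156. H2afy2 had 5.64, 7.82 and 7.47 CPM in HA-NUR77 libraries, against 9.31, 8.17 and 8.05 CPM in GFP libraries, also with no overlap, and did not pass (log2 fold change -0.29, edgeR adjusted p = 0.203). The other H2A variants overlapped between the groups and did not pass in either fit. H2afx, whose H2A.X is phosphorylated beside DNA breaks, had a log2 fold change of -0.23 (edgeR adjusted p = 0.494), and H2afj had -0.18 (edgeR adjusted p = 0.377).

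The linker histones did not pass the test. H1f0, a linker H1 that builds up in cells that have stopped dividing, had 136, 154 and 144 CPM in HA-NUR77 libraries, against 134, 144 and 131 CPM in GFP libraries. Its log2 fold change was 0.09 (95% interval -0.09 to 0.26; edgeR adjusted p = 0.415), and -0.03 with the length and GC correction. H1fx had -0.14 (edgeR adjusted p = 0.656), and H1foo, the oocyte linker histone, had no read in any library. Hist1h1c, the main clustered linker H1, had 91.7, 92.6 and 90.4 CPM in HA-NUR77 libraries, against 91.5, 110.2 and 86.7 CPM in GFP libraries. GFP library 2 was the highest of the 6 and the others lay close together, and the log2 fold change was -0.07 (95% interval -0.29 to 0.15; edgeR adjusted p = 0.612). H1f0 made 59.7%, 62.4% and 61.5% of the reads of H1f0 plus Hist1h1c in HA-NUR77 libraries, against 59.4%, 56.6% and 60.2% in GFP libraries. The groups overlapped, and each HA-NUR77 share was above that of the GFP library of its number.

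The other clustered genes had wide intervals. Hist1h2bc, an H2B gene, had 42.6, 35.9 and 51.1 CPM in HA-NUR77 libraries, against 42.5, 45.8 and 49.8 CPM in GFP libraries, and a log2 fold change of -0.10 (edgeR adjusted p = 0.614). Hist2h2be, another H2B gene, had 4.86, 3.97 and 6.32 CPM in HA-NUR77 libraries, against 2.97, 3.71 and 3.86 CPM in GFP libraries. These groups did not overlap, and the log2 fold change of Hist2h2be was 0.51 (95% interval 0.02 to 1.01; edgeR adjusted p = 0.114, 0.0297 with the block), and 0.33 to 0.67 without any single library. Hist2h4, an H4 gene, was counted at 19, 14 and 8 reads in HA-NUR77 libraries, against 28, 12 and 27 reads in GFP libraries. Its log2 fold change was -0.98 (95% interval -1.85 to -0.11; edgeR adjusted p = 0.0917, 0.0258 with the block), and it passed without GFP library 2, at -1.25. Without any single library the edgeR adjusted p was 0.0432 to 0.252. GFP library 2 lay inside the range of the HA-NUR77 libraries in reads and was the low one of its group. Hist3h2a, an H2A gene, had 3.46, 3.58 and 3.37 CPM in HA-NUR77 libraries, against 3.14, 3.16 and 3.04 CPM in GFP libraries, with no overlap, and did not pass (log2 fold change 0.16, edgeR adjusted p = 0.458). Hist1h4i, Hist1h2be and Hist2h3c2, genes for H4, H2B and H3, had log2 fold changes of 0.31, -0.28 and -0.01 (edgeR adjusted p 0.589, 0.405 and 0.973). For Hist1h4i the values spread from 1.54 CPM in GFP library 1 to 5.10 CPM in HA-NUR77 library 3.

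Promoters of the replacement genes that the results turn on are shown because they differ in their core letters. Each is 300 bases of GRCm38.p6 from RefSeq, running from upstream of the annotated start into the transcript; 57 of the 64 genes had such an entry. Capitals mark TATAAA (the TATA letters), CCAAT (the CCAAT box, bound by NF-Y) and ATTTGCAT (the octamer, bound by OCT factors), found on either strand and counted independently of each other.
H2afv, chr11:6444394-6444693, minus strand: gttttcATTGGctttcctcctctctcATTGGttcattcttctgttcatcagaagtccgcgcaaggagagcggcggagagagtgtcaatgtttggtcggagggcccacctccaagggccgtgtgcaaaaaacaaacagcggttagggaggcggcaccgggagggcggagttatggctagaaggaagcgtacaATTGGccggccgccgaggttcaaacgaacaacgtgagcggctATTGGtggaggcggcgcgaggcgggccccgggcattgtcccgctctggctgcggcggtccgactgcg
H2afz, chr3:137864237-137864536, plus strand: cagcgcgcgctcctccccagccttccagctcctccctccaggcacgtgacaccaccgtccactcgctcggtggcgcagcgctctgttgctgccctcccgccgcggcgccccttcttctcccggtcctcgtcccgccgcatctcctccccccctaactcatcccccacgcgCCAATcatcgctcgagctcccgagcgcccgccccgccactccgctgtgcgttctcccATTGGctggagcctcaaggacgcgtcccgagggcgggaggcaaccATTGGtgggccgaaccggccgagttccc
H3f3b, chr11:116024455-116024754, minus strand: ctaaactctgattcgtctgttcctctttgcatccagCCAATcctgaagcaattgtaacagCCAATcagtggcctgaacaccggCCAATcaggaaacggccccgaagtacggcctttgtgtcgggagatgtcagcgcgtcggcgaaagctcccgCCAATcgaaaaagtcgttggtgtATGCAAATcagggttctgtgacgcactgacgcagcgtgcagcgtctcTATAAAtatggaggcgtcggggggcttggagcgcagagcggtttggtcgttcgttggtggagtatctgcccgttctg

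The H2afv, H2afz and H3f3b windows hold 4, 3 and 4 CCAAT matches, and H3f3b alone of the 3 has TATAAA and the octamer. TATAAA was found in 30 of 47 clustered promoters and 1 of 10 replacement promoters, against 13.6% of all 32851 promoters of this length. CCAAT was found in 39 of 47 clustered and 7 of 10 replacement promoters, against 37.4% of all, and the octamer in 9 of 47 and 1 of 10, against 1.74% of all. Some neighbouring clustered genes share most of a window, as Hist1h2ak and Hist1h2bn do, so a site there was counted for both. AAAGGTCA, the response element that NUR77 binds as a single receptor, was in no histone promoter matched and in 1.51% of all promoters. Among clustered genes that passed the filter and had an entry, 1 of 5 had TATAAA, Hist1h4i.

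The counts for genes that supply and place histones stand against 12.4% of all genes higher and 13.2% lower, and 23.5% and 24.6% with the block. In the list for transcription and 3′ processing of clustered histone mRNA, 1 of 17 tested rose, Cstf2, a cleavage factor (log2 fold change 0.27, edgeR adjusted p = 0.039), and 1 fell, Npat, which switches on clustered histone genes. Npat had 20.6, 17.2 and 22.0 CPM in HA-NUR77 libraries, against 30.6, 25.1 and 29.2 CPM in GFP libraries, without overlap (log2 fold change -0.51, edgeR adjusted p = 0.02). Slbp, the stem-loop binding protein, averaged 16.0 ± 0.924 CPM in HA-NUR77 libraries and 16.0 ± 2.12 CPM in GFP libraries (SD, n = 3 each; log2 fold change -0.00). Upf1, a helicase needed for decay of these mRNAs, did not pass without the block and rose with it (log2 fold change 0.18, edgeR adjusted p = 0.0905, 0.0181 with the block). Among 10 poly(A) machinery genes, 2 fell, Fip1l1 and Cpsf6 (log2 fold changes -0.32 and -0.36, edgeR adjusted p 0.0132 and 0.0257), and 0 rose, with 1 higher at an unadjusted p under 0.05, Cpsf1, and 0 by DESeq2 or limma-voom. Cpsf1 rose with the block (edgeR adjusted p = 0.0843, 0.0207 with the block). With the length and GC correction neither fall passed. Cstf2 did not pass without any single library of the 6, nor Npat without HA-NUR77 library 1 or GFP library 1. Cpsf6 did not pass without HA-NUR77 library 1 or 2 or GFP library 1 or 3. With the block, 2 rose and 3 fell in the first list and 1 rose and 2 fell in the other.

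Of 26 histone chaperone and import genes, 4 rose, Asf1a, Asf1b, Nap1l4 and Dnajc9, and 2 fell, Atrx and Supt16, against 12.4% of all genes higher and 13.2% lower. Dnajc9, a chaperone partner for H3 and H4, had 24.8, 25.8 and 27.8 CPM in HA-NUR77 libraries, against 17.9, 21.2 and 18.5 CPM in GFP libraries, without overlap (log2 fold change 0.44, edgeR adjusted p = 0.0149). Atrx, a remodeller that works with DAXX to place H3.3, had 81.4, 66.4 and 88.1 CPM in HA-NUR77 libraries, against 224.9, 112.9 and 209.3 CPM in GFP libraries. The lowest GFP value, in library 2, was still above every HA-NUR77 value (log2 fold change -1.22, edgeR adjusted p = 0.0131). Asf1a, Asf1b and Supt16 were named after their values were seen. With the block 6 rose and 7 fell. The count that rose was 0 without GFP library 1, 1 without HA-NUR77 library 3 and 2 without HA-NUR77 library 1 or GFP library 2 or 3, and the count that fell was 0 without GFP library 1 and 1 without HA-NUR77 library 1 or 3 or GFP library 2. Over all genes, 1549 were higher and 1655 lower with all libraries, and 642 and 850 without GFP library 1. Leaving out one of the other libraries gave 672 to 1489 higher and 903 to 1572 lower over all genes. Without GFP library 1, Atrx had an edgeR adjusted p of 0.0657 at a log2 fold change of -1.04.

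Clustered histone genes are transcribed in S phase, so replication genes are given beside them. Of 28 S phase genes, 4 rose, Mcm2, Mcm3, Mcm4 and Cdc45, parts of the replicative helicase, and 0 fell, with 0 lower at an unadjusted p under 0.05 and 0 by DESeq2 or limma-voom. Mcm4 was named after its values were seen. The list's median log2 fold change was 0.31 and 24 of 28 were positive, against 0.01 and 6364 of 12509 over all genes tested. The list summed to 648 to 738 CPM in HA-NUR77 libraries and 525 to 651 CPM in GFP libraries. With the block 15 rose and 0 fell. Over all genes, 12.4% were higher without the block and 23.5% with it. The count that rose was 0 without HA-NUR77 library 1 or GFP library 1, 1 without HA-NUR77 library 2 or GFP library 3, 2 without HA-NUR77 library 3, 8 without GFP library 2 and 7 by DESeq2. Over all genes, the number higher also changed, from 1549 of 12509 in the main fit. It was 672, 1258 and 1049 without HA-NUR77 library 1, 2 and 3, of 12612, 12634 and 12772 tested. It was 642, 927 and 1489 without GFP library 1, 2 and 3, of 12610, 12749 and 12730 tested. By DESeq2 it was 1594 of 19879, with no filter on low counts, so this share and that of the main fit are over unlike sets of genes. The part of the S phase genes in the histone results was not tested.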

How the data were processed

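RNA-seq of 6 libraries of C2C12 myoblast lines, 3 per construct, was used. The authors deposited raw read counts for each Ensembl gene, with a table for every library. Per the labels' protocols, the libraries were stranded and poly(A)-selected. Per the submitters' processing notes, TopHat2 2.1, HTSeq and DESeq2 were used with build mm10; the strand setting and annotation release are not given in the sources used here. IDs were named through GENCODE M21 (22872 of 23154 matched). Genes were kept by filterByExpr (minimum count 10), scaled by TMM and tested two-sided in R 4.3.3 with edgeR 4.0.16 (quasi-likelihood, robust), with group as the only term and Benjamini-Hochberg adjustment over 12509 genes at 0.05. CPM uses the library total and TMM factor. Alternatives used DESeq2 1.42.0 and limma 3.58.1. The fit was tested on simulated data.

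The text names every replacement gene tested, the 10 most abundant clustered genes and those past the threshold, and the 3 smallest adjusted p in each supply list. The members and lists were chosen with earlier results of these data known. Replicate numbers are not said to mark a shared day, but deviations of same-numbered libraries correlated at 0.25, 0.55 and 0.47, each over the 0.1 required, so the fit with a replicate block is printed where it changes a call. Replicates are dishes of 1 line each, so p-values measure the spread between dishes.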

Additional observations from a re-analysis of the deposited data

How the results depend on the processing

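The only histone call, H2afv, passed in 5 of 14 alternatives. With the replicate block (libraries paired by number), 1 clustered gene was higher and 1 lower, and 2 replacement genes were higher and 3 lower. The block called 2 higher and 3 lower in the 3′ processing list, and 1 higher and 2 lower among poly(A) genes. Among chaperones it called 6 higher and 7 lower, and among S phase genes 15 higher and 0 lower. Over all genes it called 23.5% higher and 24.6% lower. Replacement genes higher numbered 0 with no filter, 0 with DESeq2 and 0 with the length and GC correction, and 1 was lower with RLE size factors. In the 3′ processing list, 0 were higher with no filter, 0 with DESeq2 and 2 with the length and GC correction. That correction gave 1 higher and 0 lower among poly(A) genes and 2 higher among chaperones, of which 1 was lower with library totals only and 1 with no filter. DESeq2 called 7 S phase genes higher. The causes were not tested.

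Leaving out each library in turn gave 0 to 0 clustered genes higher and 0 to 1 lower, 0 to 1 replacement genes higher and 0 to 1 lower, 0 to 0 higher and 0 to 2 lower in 3′ processing, 1 to 2 lower among poly(A) genes, 0 to 3 higher and 0 to 3 lower among chaperones, and 0 to 8 higher in S phase. Over all genes it gave 642 to 1489 higher and 850 to 1572 lower, against 1549 and 1655 in the main fit. Log2 fold changes that changed sign were all of genes that did not pass: H1f0 at -0.035 with the length and GC correction, Hist2h3c2 at 0.00031 with library totals only, and, over the left-out libraries, H1fx (-0.29 to 0.040), Hist1h1c (-0.14 to 0.040), Hist1h2bc (-0.23 to 0.023), Hist1h4i (-0.0072 to 0.69) and Hist2h3c2 (-0.12 to 0.089). Hist2h4 was not tested with a filter minimum of 30. In the clustered class, 44 of 52 genes had too few reads to test.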
